A study of Mus musculus with 6 samples.

Results

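The sarcomere genes described here are 49 genes that encode proteins of the contractile unit of striated muscle, other than the myosin heavy chains. They were chosen by gene symbol, with no measured value in the rule, out of 54532 genes in the deposited table. Of the 49, 46 had enough counts to be tested. Tnnc2, Tnni3 and Myom3 did not. They were sorted by role into 6 classes: thin filament (11 genes), troponin (8), thick filament (8), titin and M-band (4), Z-disc and cytoskeleton (13), and assembly and metabolism (5).

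RNA was sequenced from primary myoblasts of WT mice and of tamoxifen-induced eIF5A-KO littermates, with 3 libraries per genotype. eIF5A is a translation factor that carries the modified amino acid hypusine. The cells came from hind-limb muscle of mice aged 3 weeks, were freed by dispase and collagenase without sorting, and grew for 2 days in medium with serum and FGF (10 µg/ml by the label). Elsewhere in the study the knockout is Pax7CreERT2/+;eIF5A f/f, in which Cre is expressed in Pax7+ satellite cells (SCs), so cells of other kinds in a culture would keep the gene. The labels do not give the alleles of these 6 libraries or say that the libraries of a genotype came from separate mice, so p-values measure only the spread between these libraries, which may be technical.

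The libraries held 16281216 to 17734551 counts each. The label eIF5A-KO was not matched by a lower Eif5a transcript, which stood at 1603, 986 and 1238 CPM (TMM-normalised counts relative to library depth) in WT and at 1364, 1459 and 1059 CPM in eIF5A-KO. The groups overlapped, with a log2 fold change of 0.02 (95% confidence interval -0.51 to 0.55) and an adjusted p of 0.993 in edgeR's quasi-likelihood test. Transcript level therefore did not check the labels, and the genotype is given below as labelled. The study did measure its knockout in SCs rather than in these cultures, by RT-PCR for mRNA and immunostaining for protein. It reports that knockout as successful. Counts on mitochondrial DNA made up 5.75% in WT replicate 1 and 2.11% to 3.50% in the other 5 libraries. Markers of several cell types were present. Summed over 10 endothelial markers, FPKM (a fragment count scaled by length and depth) ran from 371 to 783 in WT and from 722 to 992 in eIF5A-KO. Summed over 12 fibroblast markers, it ran from 892 to 1232 in WT and from 966 to 1150 in eIF5A-KO. In bulk RNA, fewer cells of a type and less RNA per cell cannot be told apart.

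In a sarcomere, thick filaments of myosin slide along thin filaments of actin. Tropomyosin and the troponin complex lie on the thin filament and make sliding depend on calcium. Z-discs anchor the thin filaments, the M-band ties the thick filaments together, and titin spans from one to the other. Dividing myoblasts express few of these genes, and most are switched on when myoblasts leave the cell cycle and differentiate. Myogenic regulators of the MyoD family bind E-box sequences, and the MEF2, SRF and TEAD factors bind the MEF2 site, the CArG box and the M-CAT element.

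Because these sites are known from muscle promoters, the 250 bases before each RefSeq start (build GRCm38.p6) were searched on both strands for CAGCTG (an E-box), CATTCC (the M-CAT core), the MEF2 site and the CArG box. RefSeq entries were found for 36 of the tested members, in 45 windows. CAGCTG lay in 19 of these windows (42.2%) and in 13.0% of all 32851 windows in the RefSeq table, or 12.3% of the 13646 windows of tested genes. CATTCC lay in 11 (24.4%, against 12.6% of all windows and 11.0% of those of tested genes). The MEF2 site lay in 3 (6.67%, against 2.92% and 1.62%) and the CArG box in 6 (13.3%, against 1.47% and 1.21%). Windows of 1 gene can overlap, the tested letters can match by chance, and a match is a description and not a shown binding site. The windows below are those of the member with the smallest unadjusted p that held each motif, so they were chosen for having a match. Capitals mark the matches. The sequences are printed on the strand of the gene, 5′ to 3′, and each window ends at the base before the start.

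Tnnt2, chr1:135836084-135836333, + strand: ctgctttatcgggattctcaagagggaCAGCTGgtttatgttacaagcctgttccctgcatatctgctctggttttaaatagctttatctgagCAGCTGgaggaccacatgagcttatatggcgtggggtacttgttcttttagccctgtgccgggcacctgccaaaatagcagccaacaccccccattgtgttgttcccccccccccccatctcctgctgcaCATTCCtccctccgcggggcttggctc

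Klhl41, chr2:69669870-69670119, + strand: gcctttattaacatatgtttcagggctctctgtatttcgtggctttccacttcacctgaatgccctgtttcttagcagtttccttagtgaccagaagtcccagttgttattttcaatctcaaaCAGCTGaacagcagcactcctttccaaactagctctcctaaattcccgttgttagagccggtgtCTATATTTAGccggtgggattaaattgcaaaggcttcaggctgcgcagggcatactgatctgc

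Actc1, chr2:114052876-114053125, - strand: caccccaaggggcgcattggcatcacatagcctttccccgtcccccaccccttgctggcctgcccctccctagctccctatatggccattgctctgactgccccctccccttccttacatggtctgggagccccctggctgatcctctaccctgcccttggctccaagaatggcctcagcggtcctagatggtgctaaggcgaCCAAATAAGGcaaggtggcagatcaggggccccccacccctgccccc

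In the Tnnt2 window, CAGCTG began 223 and 157 bases before the start and the M-CAT core began 27 bases before it. In the Klhl41 window, CAGCTG began 127 bases and a MEF2 site 63 bases before the start. In the Actc1 window, a CArG box began 47 bases before the start. Of the 12 members with the smallest unadjusted p, 9 had a window, and those of Cap2, Smyd1 and Tnnt1 held none of these motifs.

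Most sarcomere genes had lower mean levels in the libraries labelled eIF5A-KO, and no member passed the test after adjustment over all genes. The log2 fold change was below 0 for 41 of the 46 tested members, where 51.7% of all 14679 tested genes were below 0. Its median over the members was -0.52, beside -0.01 over all tested genes, with a range from -2.08 (Tnnt2) to 0.43 (Unc45b). The cardiac troponin T gene Tnnt2, the actin regulator Cap2, the methyltransferase Smyd1, the BTB-Kelch protein gene Klhl41 and nebulin (Neb) had the smallest p-values. The widely expressed tropomyosin Tpm3 was the only member whose 3 eIF5A-KO libraries all lay above the 3 WT libraries.

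At an adjusted p under 0.05 in edgeR's quasi-likelihood test, 0 members and 3 of all tested genes (0.0204%) were called. DESeq2 gave an adjusted p under 0.05 for 2 members, Cap2 and Tnnt2, and for 88 of all 14679 tested genes. At an unadjusted p under 0.05 in edgeR's test, 12 members (26.1%, against 6.76% of all tested genes in either direction) were lower and 0 higher in eIF5A-KO. Among all tested genes the shares were 4.02% lower and 2.74% higher. With a fold change over 2 as well, 11 members were lower and 0 higher, against 1.32% and 0.531% of all tested genes. All 3 eIF5A-KO libraries lay below all 3 WT libraries for 13 members and above them for 1, against 6.83% and 5.68% of all tested genes.

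**Figure D1:**
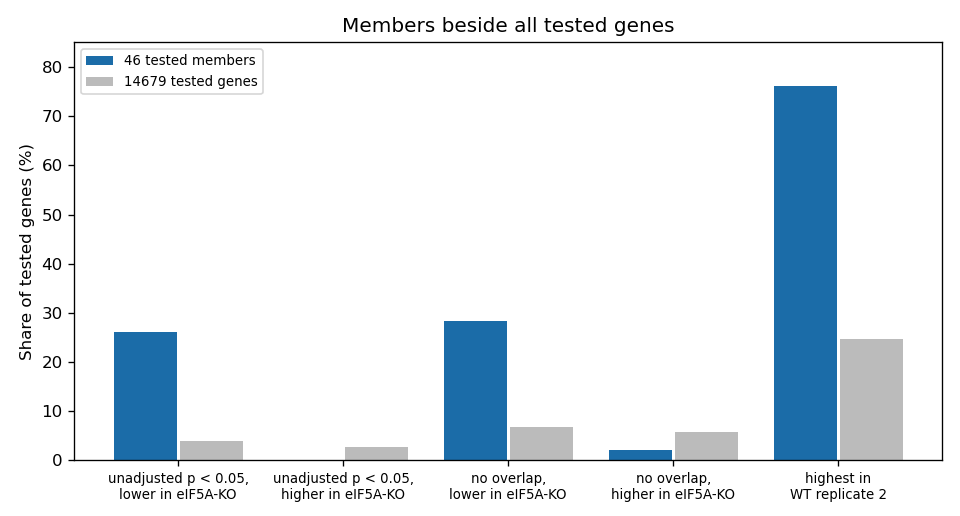
Share of the 46 tested sarcomere genes (blue bars) and of all 14679 tested genes (grey bars), in percent, that met each criterion named under the bars. The bars for lower in eIF5A-KO stand at 26.1% of members by unadjusted p and 28.3% by lack of overlap, and WT replicate 2 held the highest level of 76.1% of members and 24.6% of all tested genes.

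**Figure D2:**
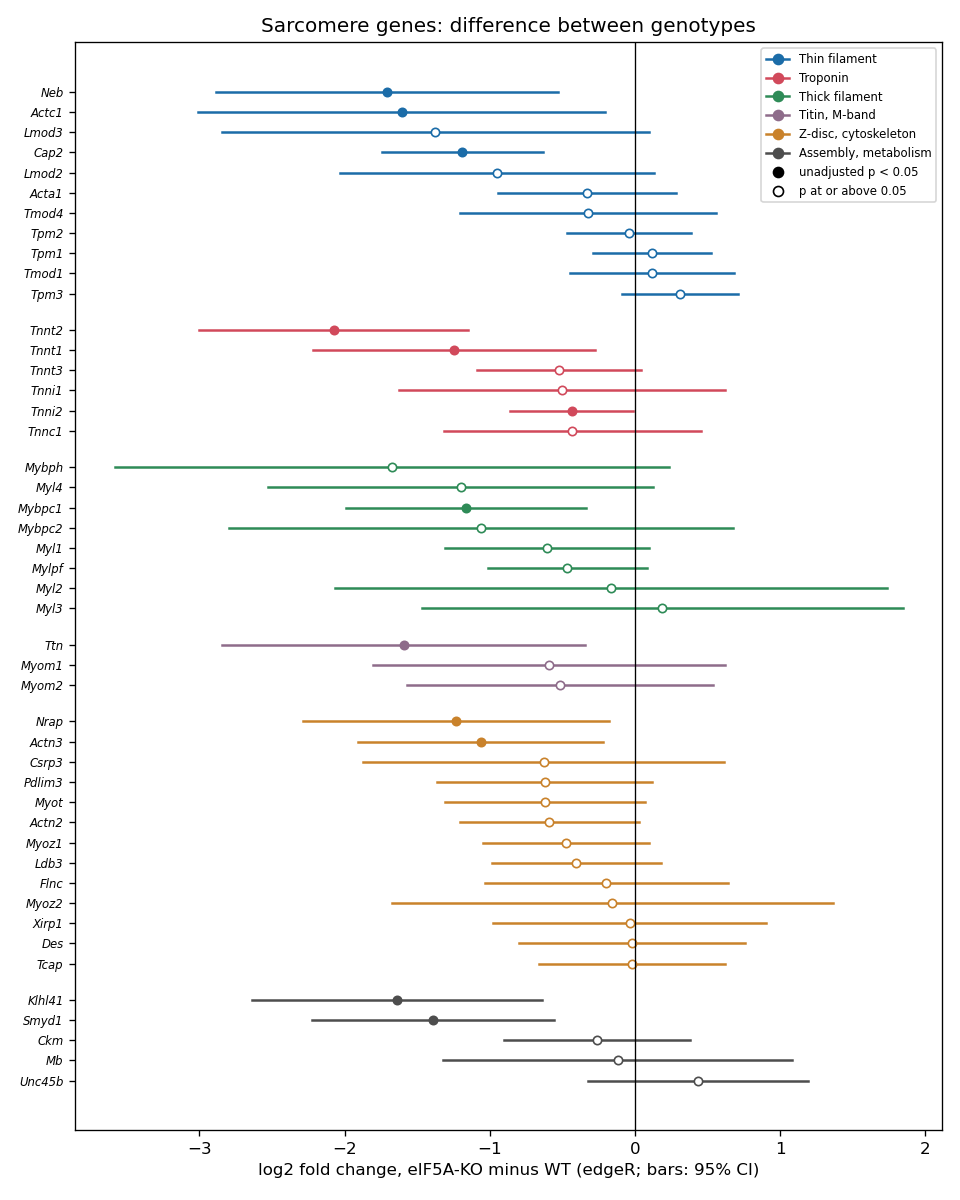
Log2 fold change of each tested sarcomere gene, eIF5A-KO minus WT, on the x axis, with its 95% confidence interval as a bar and genes grouped by class on the y axis. Filled points have an unadjusted p under 0.05, and all 12 of them lie to the left of 0.

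WT replicate 2 carried the highest level of 35 of the 46 members (24.6% of all tested genes peaked in this library). The other peaks were in WT replicate 1 (5 members, against 27.4% of all tested genes), eIF5A-KO replicate 1 (4, against 19.4%), eIF5A-KO replicate 2 (1, against 7.57%) and eIF5A-KO replicate 3 (1, against 13.1%). WT replicate 3 held 0 of them, against 8.01%. On log2(CPM + 0.5), the median distance of the members from their own mean was -0.01, 0.69 and 0.06 in WT replicates 1 to 3 and -0.09, -0.17 and -0.33 in eIF5A-KO replicates 1 to 3. WT replicate 2 thus stood apart, and the gap between the other WT libraries and eIF5A-KO was smaller. Without WT replicate 2 the median log2 fold change of the members was -0.31, and 7 members had an unadjusted p under 0.05 (15.2%, against 8.82% of all genes tested in that fit). A fold change over 2 was also met by 4 of them, all lower, against 1.26% of all genes tested. Those 7 were among the 12 of the full data, namely Cap2, Klhl41, Mybpc1, Neb, Smyd1, Tnnt1 and Tnnt2, and these kept it without any other library as well. The other 5 had an unadjusted p of 0.05 or more without WT replicate 2. This was also so for Actc1, Actn3 and Tnni2 without eIF5A-KO replicate 1, for Actc1, Actn3, Nrap and Tnni2 without eIF5A-KO replicate 2, and for Nrap, Tnni2 and Ttn without eIF5A-KO replicate 3. Without WT replicate 1, which had the high mitochondrial share, 19 members had an unadjusted p under 0.05 (41.3%, against 10.2% of all genes tested in that fit), and Tnnt2 and Ttn had an adjusted p under 0.05 in edgeR's test.

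**Figure D3:**
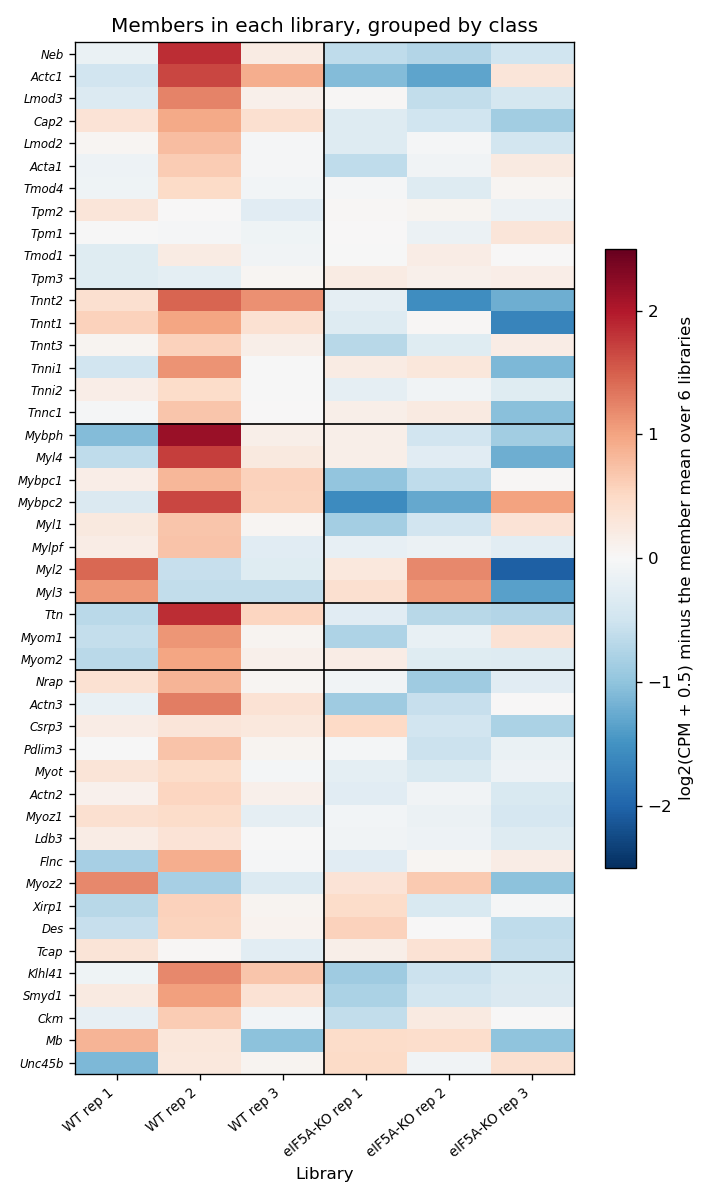
Level of each tested sarcomere gene (rows, grouped by class with lines between) in each of the 6 libraries (columns), as log2(CPM + 0.5) minus the gene's mean over the libraries. Red is above and blue below the mean, and the WT replicate 2 column is red for most genes, with a median of 0.69.

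Among the thin filament genes, the levels per length were led by skeletal actin, tropomyosin 3 and tropomyosin 1, and the genes with the smallest p were at low levels. Of 11 genes, 8 had a log2 fold change below 0 (against 51.7% of all tested genes), with a median of -0.33. At an unadjusted p under 0.05, 3 were lower, against 4.02% of all tested genes. Cap2, which encodes a cyclase-associated protein that acts on actin filaments (chr13:46501848-46650281), stood at 15.6, 23.9 and 16.2 CPM in WT and at 9.54, 8.47 and 6.41 CPM in eIF5A-KO. WT lay above eIF5A-KO in every library. It differed by a log2 fold change of -1.19 (SE 0.25), with an unadjusted p of 0.000841 and an adjusted p of 0.331 in edgeR's test.

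Neb encodes nebulin, the long protein that runs along the thin filament (chr2:52136647-52378474). It stood at 3.55, 15.9 and 4.78 CPM in WT and at 2.45, 2.25 and 2.72 CPM in eIF5A-KO. All WT values lay above eIF5A-KO, but WT replicate 2 was far above the other 2 WT libraries. Its log2 fold change was -1.71 (SE 0.52, unadjusted p = 0.00941), and -0.75 without WT replicate 2. Actc1, the cardiac actin that is also made early in skeletal muscle, stood at 3.04, 15.3 and 8.74 CPM in WT and at 1.84, 1.48 and 5.56 CPM in eIF5A-KO. WT replicate 1 lay below eIF5A-KO replicate 3, so the groups overlapped. Actc1 had a log2 fold change of -1.61 (SE 0.62, unadjusted p = 0.0290), and without WT replicate 2 it was -0.99 (unadjusted p = 0.123) and without eIF5A-KO replicate 3 it was -2.44.

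The skeletal actin Acta1 was far more abundant per length than Actc1, at 128 ± 39.7 FPKM in WT (SD, n = 3) against 5.52 ± 3.75 FPKM for Actc1. Acta1 stood at 158, 270 and 169 CPM in WT and at 112, 161 and 202 CPM in eIF5A-KO. The groups overlapped, and its log2 fold change was -0.33 (95% confidence interval -0.94 to 0.29). Without WT replicate 2 it was -0.044, without eIF5A-KO replicate 1 it was -0.12, and without eIF5A-KO replicate 3 it was -0.54. Acta1 is 92.5% identical over 239 bases to a transcript of Actb, which had 52788 to 64444 counts per library. Whether reads were exchanged between them was not tested. Tpm3 stood at 497, 516 and 633 CPM in WT and at 698, 665 and 681 CPM in eIF5A-KO. All 3 eIF5A-KO values were higher than WT, by a log2 fold change of 0.31 with a 95% confidence interval of -0.09 to 0.71. Its transcript is 99.1% identical over 2108 bases to that of Tpm3-rs7, which had 796 to 1099 counts per library, so the split of reads between them is uncertain. Tpm1, which striated and smooth muscle share, stood at 331, 324 and 308 CPM in WT and at 333, 299 and 413 CPM in eIF5A-KO. Its groups overlapped, with a log2 fold change of 0.12 (95% confidence interval -0.29 to 0.52). The remaining 5 thin filament genes not yet named, Tpm2 and the pointed-end regulators Lmod2, Lmod3, Tmod1 and Tmod4, had log2 fold changes from -1.37 (Lmod3) to 0.12 (Tmod1), and 0 of them had an unadjusted p under 0.05. Lmod3 peaked in WT replicate 2 at 2.39 CPM, against at most 0.827 CPM in the other WT libraries and 0.734 CPM in eIF5A-KO. Tmod1 shares 40.8% of its exonic bases with exons of another gene, Tstd2.

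**Figure D4:**
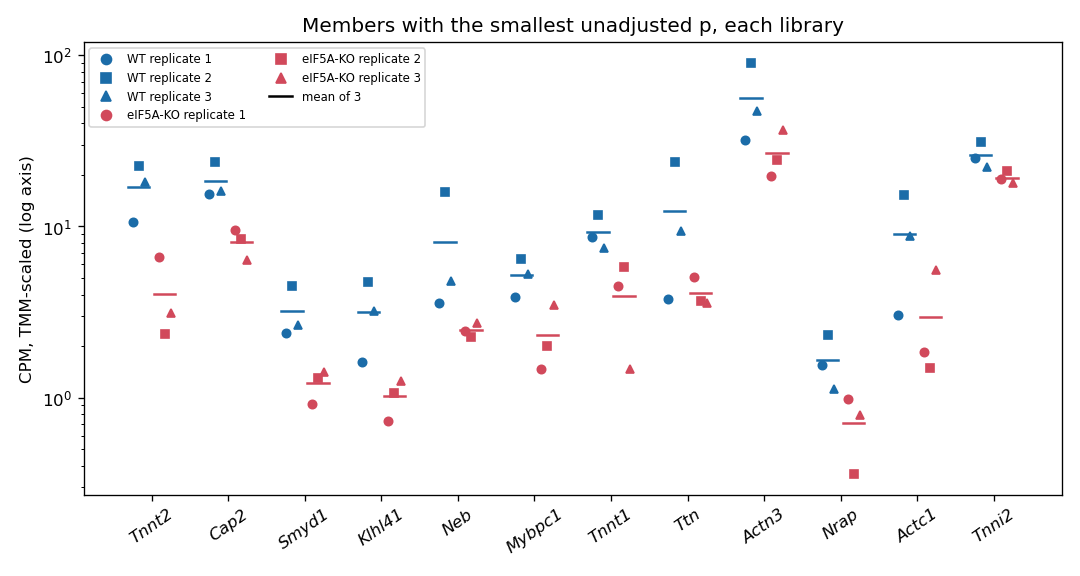
TMM-scaled CPM on a log axis for the 12 sarcomere genes with the smallest unadjusted p, ordered from left to right by p, with WT libraries in blue and eIF5A-KO in red. Each point is 1 library, with the marker shape giving its replicate number, and each line is the mean of 3. The blue and red points separate for Tnnt2, Cap2, Smyd1 and Klhl41 and overlap for Ttn, Actn3 and Actc1.

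Of the troponin genes, all 6 that could be tested had a log2 fold change below 0, with a median of -0.51. Of all tested genes, 51.7% were below 0. The slow and cardiac troponin T genes had the largest differences. At an unadjusted p under 0.05, 3 of the 6 genes were lower, against 4.02% of all tested genes. Tnnt2 encodes cardiac troponin T, which embryonic and regenerating skeletal muscle also make (chr1:135836354-135852260). It stood at 10.6, 22.4 and 18.1 CPM in WT and at 6.67, 2.37 and 3.12 CPM in eIF5A-KO. Every eIF5A-KO library was below every WT library. Its log2 fold change was -2.08 (SE 0.41, 95% confidence interval -3.00 to -1.15), with an unadjusted p of 0.000631 and an adjusted p of 0.321 in edgeR's test. Leaving out any 1 library moved it between -2.63 and -1.80. The promoter window of this gene is printed above.

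Tnnt1, the slow troponin T, stood at 8.66, 11.7 and 7.50 CPM in WT and at 4.47, 5.80 and 1.47 CPM in eIF5A-KO. The groups did not overlap, and eIF5A-KO replicate 3 was the lowest. Tnnt1 had a log2 fold change of -1.25 (SE 0.43, unadjusted p = 0.0172). The fast troponin T gene Tnnt3 was more abundant, at 25.6 ± 5.11 FPKM in WT (SD, n = 3), against 4.16 ± 0.965 FPKM for Tnnt1 and 2.18 ± 0.769 FPKM for Tnnt2. Tnnt3 stood at 35.2, 50.2 and 37.3 CPM in WT and at 20.6, 26.9 and 37.9 CPM in eIF5A-KO. The groups overlapped through eIF5A-KO replicate 3, with a log2 fold change of -0.52 (SE 0.25, unadjusted p = 0.0654). It was -0.35 without WT replicate 2 and -0.33 without eIF5A-KO replicate 1.

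Tnni2, the fast inhibitory subunit, stood at 25.0, 31.0 and 22.3 CPM in WT and at 19.0, 21.1 and 17.9 CPM in eIF5A-KO. A small margin separated the groups. Its log2 fold change was -0.44 (SE 0.19, unadjusted p = 0.0449), and -0.29 without WT replicate 2 (unadjusted p = 0.161). Tnnc1, the slow and cardiac calcium-binding subunit, stood at 5.23, 8.91 and 5.37 CPM in WT and at 5.93, 6.28 and 2.32 CPM in eIF5A-KO. The groups overlapped, and its log2 fold change was -0.43 (95% confidence interval -1.31 to 0.45). Without eIF5A-KO replicate 3 it was -0.092, and without WT replicate 2 it was -0.13. The slow inhibitory subunit Tnni1 had a log2 fold change of -0.50 with overlapping groups and its peak in WT replicate 2 (13.9 CPM). Its WT replicates 1 and 3 lay below eIF5A-KO replicates 1 and 2 and above eIF5A-KO replicate 3. The cardiac inhibitory subunit, Tnni3, averaged 0.450 CPM in WT and was not tested. Tnnc2, the fast calcium-binding subunit, had 0 counts in every library, which allows up to 0.159 to 0.194 CPM per library (3 counts) by counting error alone. Of its exonic bases, 84.6% are shared with exons of Ube2c on the opposite strand, and whether reads there were left out of the counting is not given in the sources used here.

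The thick filament genes other than the heavy chains are the light chains, which wrap the neck of myosin, and the myosin-binding proteins. Of 8 genes, 7 had a log2 fold change below 0 (against 51.7% of all tested genes), with a median of -0.83. Mybpc1 alone had an unadjusted p under 0.05, and by that measure 4.02% of all tested genes were lower. Mybpc1, the slow myosin-binding protein C, stood at 3.88, 6.42 and 5.26 CPM in WT and at 1.47, 2.01 and 3.46 CPM in eIF5A-KO. The groups did not overlap. The difference was -1.16 on the log2 scale (SE 0.37, unadjusted p = 0.0110, adjusted p = 0.513 in edgeR's test).

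The fast light chains were the most abundant genes of this class, and their groups overlapped. Mylpf, the fast regulatory light chain, stood at 54.0, 78.3 and 39.2 CPM in WT and at 41.4, 43.2 and 39.5 CPM in eIF5A-KO. WT replicate 3 lay below all 3 eIF5A-KO libraries, and the log2 fold change was -0.47 (SE 0.24, unadjusted p = 0.0865), or -0.17 without WT replicate 2. Myl1, the fast essential light chain, stood at 37.4, 51.2 and 32.2 CPM in WT and at 17.2, 22.4 and 39.7 CPM in eIF5A-KO. Only eIF5A-KO replicate 3 reached the WT range, and the log2 fold change was -0.61 (SE 0.31, unadjusted p = 0.0822). Leaving out 1 library moved it between -1.02 (without eIF5A-KO replicate 3) and -0.36 (without eIF5A-KO replicate 1), with -0.39 without WT replicate 2. Myl1 shares 99.3% identity over 421 bases with the pseudogene Mylf-ps, which had 3 to 31 counts per library. Mybpc2, Mybph and Myl4 had log2 fold changes of -1.06, -1.68 and -1.20, each with overlapping groups and its highest value in WT replicate 2. There they stood at 14.6, 9.12 and 24.3 CPM, against at most 6.50, 1.89 and 8.39 CPM in the other WT libraries. Their highest eIF5A-KO values were 9.07, 1.90 and 7.77 CPM. Mybph shares 49.9% of its exonic bases with exons of Adora1.

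Myl2 and Myl3 followed another order of libraries. Myl2, the slow regulatory light chain, stood at 9.44, 1.96 and 2.48 CPM in WT and at 3.92, 7.99 and 0.397 CPM in eIF5A-KO. Myl3, the slow essential light chain, stood at 5.95, 1.48 and 1.48 CPM in WT and at 3.49, 5.92 and 0.680 CPM in eIF5A-KO. In both genes WT replicate 1 and eIF5A-KO replicates 1 and 2 were high, eIF5A-KO replicate 3 was lowest, and the groups overlapped. Their log2 fold changes were -0.17 (SE 0.85) and 0.19 (SE 0.74). Without WT replicate 1 that of Myl2 was 0.89, and without eIF5A-KO replicate 2 that of Myl3 was -0.49.

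Myoz2 and Mb had nearly the same high and low libraries, as did Tcap, which is given with the Z-disc genes. These genes were set side by side after their values were seen. Myoz2, a calcineurin-binding Z-disc protein of slow and cardiac muscle, stood at 6.14, 1.11 and 1.77 CPM in WT and at 3.12, 4.03 and 0.907 CPM in eIF5A-KO. Mb, the oxygen-binding myoglobin, stood at 10.5, 6.95 and 2.54 CPM in WT and at 8.01, 7.87 and 2.55 CPM in eIF5A-KO. For Mb, WT replicate 2 was also high, and WT replicate 3 was as low as eIF5A-KO replicate 3. The log2 fold changes were -0.15 (SE 0.67) for Myoz2 and -0.12 (SE 0.53) for Mb, which shares 31.9% of its exonic bases with exons of other genes. Among other slow or cardiac genes, Actc1, Mybpc1, Myl4, Tnnc1, Tnni1, Tnnt1 and Tnnt2 were highest in WT replicate 2, Tnni3 in WT replicate 3 and Csrp3 in eIF5A-KO replicate 1.

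Titin and the M-band genes were scarce per length. All 3 tested genes had a log2 fold change below 0, with a median of -0.59, and all 3 were highest in WT replicate 2. Ttn, the gene of the giant spring protein titin (chr2:76703980-76982547), stood at 3.75, 23.9 and 9.39 CPM in WT and at 5.08, 3.67 and 3.57 CPM in eIF5A-KO. WT replicate 1 fell inside the eIF5A-KO range, so the groups overlapped. Its log2 fold change was -1.59 (SE 0.56, unadjusted p = 0.0178), and without WT replicate 2 it was -0.68 (unadjusted p = 0.114). Per length, Ttn averaged 0.0698 FPKM over the 6 libraries. Myom1, a myomesin that crosslinks thick filaments, stood at 1.29, 5.36 and 2.36 CPM in WT and at 1.10, 1.89 and 3.00 CPM in eIF5A-KO, a log2 fold change of -0.59 (SE 0.54). Myom2, the fast-fibre relative, stood at 1.49, 5.83 and 2.95 CPM in WT and at 3.12, 2.07 and 2.04 CPM in eIF5A-KO, a log2 fold change of -0.52 (SE 0.47). Both overlapped, and without WT replicate 2 their log2 fold changes were 0.13 and 0.11. Myom3 averaged 0.743 CPM in WT and 0.216 CPM in eIF5A-KO and was not tested.

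All 13 Z-disc and cytoskeleton genes had a log2 fold change below 0, with a median of -0.47. For 5 of them, Actn2, Ldb3, Myot, Nrap and Pdlim3, all eIF5A-KO libraries lay below all WT libraries, against 6.83% of all tested genes. At an unadjusted p under 0.05, 2 genes, Actn3 and Nrap, were lower, against 4.02% of all tested genes. Actn3, the fast-fibre actinin that crosslinks actin at the Z-disc (chr19:4861223-4877909), stood at 32.0, 90.3 and 47.0 CPM in WT and at 19.6, 24.6 and 36.8 CPM in eIF5A-KO. The groups overlapped, with WT replicate 1 below eIF5A-KO replicate 3. Actn3 had a log2 fold change of -1.06 (SE 0.37, unadjusted p = 0.0187), and -0.55 without WT replicate 2 (unadjusted p = 0.0801). Nrap, an anchoring protein of young myofibrils, stood at 1.55, 2.33 and 1.12 CPM in WT and at 0.979, 0.355 and 0.794 CPM in eIF5A-KO. Groups were apart at these low levels, and the log2 fold change was -1.23 (SE 0.47, unadjusted p = 0.0266). It was -0.90 without WT replicate 2 (unadjusted p = 0.116) and without eIF5A-KO replicate 2 (unadjusted p = 0.105).

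Des and Flnc were the most abundant genes of this class, and neither differed beyond its spread. Desmin (Des), the muscle intermediate filament that myoblasts and smooth muscle also make, stood at 197, 430 and 310 CPM in WT and at 439, 296 and 189 CPM in eIF5A-KO. Each group covered nearly the whole range, with a log2 fold change of -0.02 (95% confidence interval -0.80 to 0.76). Filamin C (Flnc), an actin crosslinker, stood at 81.4, 273 and 141 CPM in WT and at 118, 149 and 165 CPM in eIF5A-KO. The groups overlapped, and its log2 fold change was -0.20 (SE 0.37), or 0.37 without WT replicate 2. Tcap, the titin cap, stood at 14.3, 11.5 and 9.39 CPM in WT and at 12.6, 14.7 and 7.37 CPM in eIF5A-KO, and its log2 fold change was -0.02 (95% confidence interval -0.66 to 0.62). The other 7 genes of this class, Actn2, Csrp3, Ldb3, Myot, Myoz1, Pdlim3 and Xirp1, had log2 fold changes from -0.63 to -0.04.

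Assembly and metabolism genes split into a pair with low levels in eIF5A-KO and the rest. Smyd1, a methyltransferase that helps to fold myosin (chr6:71213940-71322233), stood at 2.39, 4.51 and 2.66 CPM in WT and at 0.918, 1.30 and 1.42 CPM in eIF5A-KO. The genotypes were separate. Smyd1 had a log2 fold change of -1.39 (SE 0.37), with an unadjusted p of 0.00419 and an adjusted p of 0.400 in edgeR's test. Klhl41, which stabilizes nebulin (chr2:69670120-69684230), stood at 1.62, 4.72 and 3.19 CPM in WT and at 0.734, 1.07 and 1.25 CPM in eIF5A-KO. The groups did not overlap, and WT replicate 1 was nearest to eIF5A-KO. The log2 fold change was -1.64 (SE 0.44, unadjusted p = 0.00462, adjusted p = 0.414 in edgeR's test).

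Unc45b, a myosin chaperone that works in the same folding pathway as Smyd1, stood at 9.05, 24.7 and 21.4 CPM in WT and at 28.5, 19.1 and 27.0 CPM in eIF5A-KO. WT replicate 1 was low and the other libraries overlapped. The log2 fold change of Unc45b, 0.43 (95% confidence interval -0.33 to 1.20), was the highest among the members in the full data. Without WT replicate 1 it was 0.12, below the 0.25 of Tpm3 in the same fit, and without WT replicate 2 it was 0.71. Ckm, the muscle creatine kinase, stood at 31.7, 57.3 and 34.8 CPM in WT and at 23.7, 42.9 and 36.6 CPM in eIF5A-KO. The groups overlapped, with a log2 fold change of -0.26 (95% confidence interval -0.90 to 0.38). Ckm shares 16.4% of its exonic bases with exons of another gene.

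Other genes of the muscle programme were counted beside the sarcomere genes, and are to be read against 51.7% of all tested genes below 0 and 4.02% lower at an unadjusted p under 0.05. Of 8 myosin heavy chain genes 5 were tested, all with a log2 fold change below 0 and a median of -1.11, and 2 (Myh1 and Myh3) had an unadjusted p under 0.05. Of 13 tested excitation-contraction genes, 11 were below 0, with a median of -0.41, and 3 (Jph2, Ryr1 and Stac3) had an unadjusted p under 0.05. The groups overlapped for Jph2, Ryr1 and Myh3. WT replicate 2 held the highest level of 4 of these 5 heavy chain genes and 11 of these 13 excitation-contraction genes. Of 13 tested myogenic regulators, 7 were below 0, with a median of -0.54, and 11 were highest in WT replicate 2. The 6 above 0 were Mef2a, Mef2c, Mef2d, Srf, Mkl2 and Myf5, with log2 fold changes from 0.04 (Mef2a) to 0.20 (Mef2d). Myog, a MyoD-family factor of differentiating myoblasts, stood at 14.4, 76.3 and 32.2 CPM in WT and at 8.93, 5.09 and 2.10 CPM in eIF5A-KO. Myod1 stood at 264, 550 and 437 CPM in WT and at 349, 272 and 196 CPM in eIF5A-KO. Both were highest in WT replicate 2, as were most sarcomere genes, and their part in that pattern was not tested.

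The non-muscle relatives of the sarcomere genes (cytoplasmic actins, actinins, filamins and light chains) were counted as well. Of 21 tested, 8 had a log2 fold change below 0, with a median of 0.11. At an unadjusted p under 0.05, 0 were lower and 1 (Pdlim7, log2 fold change 0.35) was higher in eIF5A-KO. Whether these differ from the sarcomere genes was not tested.

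Markers of other cell types were summed in each library, and their part in the differences above was not tested. At an unadjusted p under 0.05, 2.74% of all tested genes were higher and 4.02% lower in eIF5A-KO. By that measure, 6 of 14 tested smooth muscle and mural markers were higher and 1 lower. Among the other markers, 2 of 10 endothelial, 2 of 11 fibroblast and 1 of 10 macrophage markers were higher, and 1 of 13 myoblast markers was lower. Only Myh11, a smooth muscle marker, had an adjusted p under 0.05 in edgeR's test (0.0486). That call was lost with DESeq2 size factors, library size alone, at least 10 counts in every library, limma-voom and limma on FPKM, and on leaving out any 1 library but WT replicate 1, since 0 genes were called in each of these. The 14 tested smooth muscle and mural markers had log2 fold changes with a median at 0.44 and 13 above 0, and their summed level ran from 128 to 189 FPKM in WT and from 190 to 221 FPKM in eIF5A-KO. All 10 endothelial markers were above 0, with a median of 0.49, and 9 of them were lowest in WT replicate 1, where they summed to 371 FPKM against 783 and 745 FPKM in the other WT libraries. The 11 tested fibroblast markers had a median of -0.10, with 6 below 0. The 10 macrophage markers had a median of 0.31, with 8 above 0, and their summed level ran from 47.2 to 99.4 FPKM in WT and from 47.8 to 128 FPKM in eIF5A-KO. The 13 tested myoblast markers, which include Des and Myod1, had a median of -0.31, with 10 below 0, and summed to 462, 727 and 577 FPKM in WT and 666, 515 and 355 FPKM in eIF5A-KO. Of 11 cardiomyocyte markers only 3 could be tested, and Nkx2-5 and Myl7 had 0 counts in all 6 libraries.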

How the data were processed

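Counts per gene and FPKM were deposited by the authors. Reads were aligned with HISAT to mm10 per the labels and the study's methods. For the read coverage of genes the methods name DEGSeq2, and no other counting tool is named for the RNA-seq. The annotation release and strand handling are not given for it in the sources used here. The deposited FPKM values were made by the authors with a library scale that follows median-of-ratios size factors, and are used here to compare levels between genes, to sum marker lists per library, and in 2 limma alternatives. Counts were fitted with edgeR 4.0.16 in R 4.3.3: filterByExpr left 14679 genes, TMM factors scaled the libraries, and the quasi-likelihood test compared 3 eIF5A-KO with 3 WT libraries, with Benjamini-Hochberg adjustment over all tested genes. Fold changes used edgeR's default prior count of 0.125, which replaced a prior count of 2 after the counts of all genes had been seen. No pairing is described, so none was fitted. The members and lists were chosen with earlier results of these data known. The p-values of the myogenic regulators are not reported here. Members with a value for every library are the 3 tested members with the highest FPKM in each class and the 12 with the smallest unadjusted p. Tcap, Myl3 and Myoz2 were added after their values were seen. Shared exons and near-identical transcripts were read from GENCODE. Total counts per library were 16281216 to 17734551, and 5 of 49 members share over 10% of their exonic bases with another gene. Alternatives were other scalings, filters and tools (DESeq2 1.42.0, limma 3.58.1), the replicate block, and leaving out each library.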

Additional observations from a re-analysis of the deposited data

How the results depend on the processing

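In every one of 17 alternatives, 0 sarcomere genes were higher in eIF5A-KO at an unadjusted p under 0.05, and the median log2 fold change of the members stayed below 0. It was -0.66 to -0.31 when 1 library was left out and -0.24 with limma on log2(FPKM + 1), a scale that shrinks low genes. The number of members with an adjusted p under 0.05, 0 in edgeR, was 10 with no filter on low counts, 2 with DESeq2, and 0 to 2 when 1 library was left out. The number with an unadjusted p under 0.05, 12 in edgeR, was 19 of 48 with no filter (39.6%, against 6.32% of all genes tested). It was 7 to 19 when 1 library was left out. The 7 were without WT replicate 2 (against 8.82% of all genes tested) and the 19 without WT replicate 1 (against 10.2%). The number that was lower with a fold change over 2 as well was 11 in edgeR, against 1.32% of all tested genes. It was 2 with limma on log2(FPKM + 1), against 0.320%, and 7 on log2(FPKM + 0.1), against 0.926%. When 1 library was left out it was 4 to 14, against 1.26% to 2.11% of all genes tested. A prior count of 2 for the fold changes, added after the data were seen, left that number at 11, and gave 182 lower and 66 higher genes of all tested in place of 194 and 78. Of all tested genes, 3 had an adjusted p under 0.05. The count was 0 with DESeq2 size factors, library size alone, at least 10 counts in every library, limma-voom and limma on log2(FPKM + 1) or log2(FPKM + 0.1). It was 249 with no filter, 88 with DESeq2, 24 with the replicate block and 0 to 56 when 1 library was left out. The cause of these changes was not tested.

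Deviations of same-numbered WT and eIF5A-KO libraries correlated at 0.084, -0.16 and 0.105. Those of differently numbered libraries correlated at -0.27 to 0.27. With 3 libraries per group, these values cannot show whether the replicate numbers pair the libraries. With the replicate block, 15 members (32.6%, against 5.96% of all genes tested) passed 0.05 by unadjusted p and 0 by adjusted p. Of 30 members given with a value for every library, 19 kept their direction in every alternative that tested them. Nrap and Myl2 had none with at least 10 counts in every library. Limma-voom gave Myoz2 a log2 fold change of 0.0040. When 1 library was left out, log2 fold changes ranged from -0.44 to 0.052 for Ckm, -0.36 to 0.28 for Des, -0.51 to 0.37 for Flnc, -0.51 to 0.38 for Mb, -1.09 to 0.89 for Myl2, -0.49 to 1.19 for Myl3, -1.01 to 0.13 for Myom1, -0.86 to 0.11 for Myom2, -0.56 to 0.90 for Myoz2, -0.22 to 0.22 for Tcap and -0.021 to 0.22 for Tpm1.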
